A study of Mus musculus with 12 samples.

Results

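The genes described here are 36 genes that type I interferon induces in most cells, chosen as the rows of the count table that carry their symbols. All 36 were present among the 24391 gene symbols of the table, and all 36 passed the filter on low counts, as did 13221 genes in all. The RNA came from CD11b dendritic cells (DCs), a type of antigen-presenting cell marked here by the integrin CD11b, of mice in a study of established lung fibrosis. All mice were wild-type C57BL/6J, 8 to 12 weeks old, and all had received a replication-deficient adenovirus through the trachea. In 6 libraries the virus had no gene inserted (AdCL), and in the other 6 it carried an active porcine TGF-β1 gene (AdTGFb1). Per the sample titles, experiment 1 gave AdCL DC 7, 8 and 9 and AdTGFb1 DC 14, 52 and 54, and experiment 3 gave AdCL DC 943, 944 and 949 and AdTGFb1 DC 954, 955 and 956. With 3 libraries per vector and experiment, each comparison measures the spread between these libraries, since whether they came from separate animals is not given in the sources used here. A group without adenovirus was not analysed here, so the levels with AdCL are those of cells from mice that had also been given a virus. In bulk RNA, fewer cells with a transcript and less of it per cell cannot be told apart.

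Type I interferons are secreted by cells that sense viral nucleic acids and act through a receptor of the subunits IFNAR1 and IFNAR2. The kinases JAK1 and TYK2 at this receptor activate STAT2, which joins IRF9 in the complex ISGF3. ISGF3 binds the interferon-stimulated response element (ISRE) in the promoters of many of the 36 genes, whose products sense viral RNA, halt its translation, trap virions or tune the response itself. Interferon-γ acts through another element (GAS) and induces a partly shared set of genes, among them those of the guanylate-binding proteins. Dendritic cells both make and respond to type I interferon, which promotes their maturation.

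The totals ran from 10099912 to 15594546 counts per library, and levels are given as CPM, the count of a gene per 1000000 counts of the TMM-scaled library size. Itgam and Itgax, which encode CD11b and CD11c, were present in all 12 libraries, at 276 to 561 CPM and 788 to 1241 CPM. Of other CD11b DC markers, Cd209a, Flt3 and Zbtb46 were lower in all 6 AdTGFb1 libraries than in every AdCL library. Their ratios of the means in experiments 1 and 3 were 0.233 and 0.277, 0.353 and 0.47, and 0.312 and 0.333. Sirpa was higher (1.63 and 1.37). The mean centred log2 CPM of these markers was 0.246 to 0.694 with AdCL and -0.512 to -0.252 with AdTGFb1. Xist and Ddx3y showed that AdCL DC 7, 8 and 9 and AdTGFb1 DC 14 were male and the other 8 libraries female, so that in experiment 1 sex and vector largely coincide. Of 6 endothelial markers, summed, the AdCL libraries of experiment 1 held 198 to 524 CPM, the AdTGFb1 libraries of experiment 1 held 61.9 to 83.1 CPM, and those of experiment 3 held 73.7 to 121 CPM (AdCL) and 111 to 159 CPM (AdTGFb1). The sum of 11 macrophage and monocyte markers was 3773 to 4475 and 8622 to 11306 CPM with AdCL and AdTGFb1 in experiment 1, and 7144 to 8719 and 14539 to 18496 CPM in experiment 3. That of 7 markers of mature DCs was 3497 to 4044 and 1195 to 1427 CPM in experiment 1, and 3114 to 4712 and 966 to 1642 CPM in experiment 3. Plasmacytoid DCs are the main producers of interferon-α. The summed level of their markers overlapped between the vectors in both experiments, at 109 to 159 CPM over the 12 libraries. Siglech reached 9.20 CPM at most, and Klk1 and Ly6d lay at or near 0. Ccr9 was lower with AdTGFb1, at ratios of the means of 0.29 and 0.281 in experiments 1 and 3. It lay below every AdCL library in 5 of 6 AdTGFb1 libraries. Siglech was lower on average in experiment 1 only (0.348 and 1.09), and Cox6a2 was higher in both (1.15 and 1.99). The part of the CD11b DC, macrophage, monocyte and mature DC markers in the results was not tested. Alternative models had sex as a term, the other-cell marker term (the mean level of markers of B cells, T and NK cells, neutrophils, endothelium, epithelium and fibroblasts) or library totals only, without TMM scaling. Only the AdTGFb1 group of experiment 1 held both sexes. In models of the 4 groups the sex term thus rests on AdTGFb1 DC 14 against DC 52 and 54. With the other-cell marker term Dtx3l alone of the 36 genes was called over both experiments and Oasl1 alone within experiment 1. How many of all genes were called with that term was not counted. In experiment 1 the mean levels of endothelial, epithelial, fibroblast and neutrophil markers did not overlap between the vectors. This term and the vector thus largely coincide there and cannot be told apart. Calls can be lost with it while the value grows, as for Mx1 (-1.15 to -1.61 in experiment 1).

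The promoters of 6 of these genes are printed because these are among the genes described library by library, and because 3 hold the ISRE core and 3 do not. Each is the RefSeq window (build GRCm38.p6, another build than that of the counts) from 250 bases before to 50 bases after the start of the gene, 5′ to 3′ on the gene's own strand. Capitals mark the ISRE core, searched on both strands as GAAA, 2 bases of any kind and GAAA again, which on the other strand reads TTTC, 2 bases and TTTC. The windows are those of Stat2 (chr10:128270248-128270547, plus strand), Ifih1 (chr2:62646206-62646505, minus strand), Ifit1 (chr19:34640639-34640938, plus strand), Irf7 (chr7:141266375-141266674, minus strand), Oasl1 (chr5:114922990-114923289, plus strand) and Lgals3bp (chr11:118401910-118402209, minus strand).
Stat2: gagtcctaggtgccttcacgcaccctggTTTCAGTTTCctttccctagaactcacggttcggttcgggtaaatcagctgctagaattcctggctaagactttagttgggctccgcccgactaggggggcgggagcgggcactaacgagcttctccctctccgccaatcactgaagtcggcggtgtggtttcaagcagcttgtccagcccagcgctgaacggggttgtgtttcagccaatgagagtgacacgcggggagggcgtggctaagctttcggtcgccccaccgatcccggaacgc
Ifih1: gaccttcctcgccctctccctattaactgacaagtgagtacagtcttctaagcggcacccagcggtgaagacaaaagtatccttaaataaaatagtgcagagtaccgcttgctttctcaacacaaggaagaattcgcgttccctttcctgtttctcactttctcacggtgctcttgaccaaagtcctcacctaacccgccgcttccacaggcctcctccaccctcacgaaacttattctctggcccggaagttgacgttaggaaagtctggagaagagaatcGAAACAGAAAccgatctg
Ifit1: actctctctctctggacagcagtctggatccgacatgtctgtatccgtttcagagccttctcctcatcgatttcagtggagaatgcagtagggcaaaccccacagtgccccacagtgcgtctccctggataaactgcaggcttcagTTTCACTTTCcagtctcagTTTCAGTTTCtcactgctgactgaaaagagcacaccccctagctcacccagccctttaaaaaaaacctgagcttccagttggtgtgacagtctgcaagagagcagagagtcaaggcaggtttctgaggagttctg
Irf7: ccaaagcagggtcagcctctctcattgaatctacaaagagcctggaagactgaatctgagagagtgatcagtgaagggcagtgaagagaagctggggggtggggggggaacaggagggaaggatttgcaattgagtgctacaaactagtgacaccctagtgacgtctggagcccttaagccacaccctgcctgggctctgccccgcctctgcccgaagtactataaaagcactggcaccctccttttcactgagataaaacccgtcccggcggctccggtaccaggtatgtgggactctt
Oasl1: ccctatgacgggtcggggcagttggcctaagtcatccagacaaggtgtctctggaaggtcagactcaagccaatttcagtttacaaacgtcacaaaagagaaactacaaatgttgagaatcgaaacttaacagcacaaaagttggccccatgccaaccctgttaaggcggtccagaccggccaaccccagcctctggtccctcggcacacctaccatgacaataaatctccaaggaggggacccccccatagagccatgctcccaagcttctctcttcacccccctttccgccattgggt
Lgals3bp: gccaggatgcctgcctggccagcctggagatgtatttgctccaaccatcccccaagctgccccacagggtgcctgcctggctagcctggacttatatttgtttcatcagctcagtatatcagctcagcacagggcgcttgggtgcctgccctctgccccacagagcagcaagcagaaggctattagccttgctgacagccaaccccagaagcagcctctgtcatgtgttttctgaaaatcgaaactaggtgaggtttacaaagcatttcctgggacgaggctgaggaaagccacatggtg
The core begins 222 bases before the start of Stat2 and 32 bases after that of Ifih1, and Ifit1 holds it at 104 and 85 bases before its start. RefSeq windows were found for 26 of the 36 genes, and 12 of them (46.2%) held the core on either strand, against 3.85% of 9942 tested genes and 3.43% of all 32817 windows. The GAS element, TTCNNNGAA, was in 6 of the 26 (23.1%), against 8.29% of all windows. Where a gene had more than 1 window, a match in any of them was counted. A missing core says only that these letters are not in this window.

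Over both experiments, single interferon-stimulated genes were called in opposite directions between the vectors. In edgeR's quasi-likelihood test, with the experiment as a term and p-values adjusted over all 13221 genes, 8 of the 36 rose, 5 fell and 23 did not pass. Of all genes tested, 6.78% rose and 10.4% fell, so that 17.2% were called in either direction. The genes that rose were Irf7, Zbp1, Oasl2, Eif2ak2, Ifit2, Parp9, Dtx3l and Lgals3bp, and those that fell were Ifih1, Oasl1, Ifit1, Mx1 and Ifi27l2a. The median log2 fold change of the 36 was 0.35, that of all genes tested was -0.0020, and the extremes among the 36 were -1.61 for Ifit1 and 1.39 for Zbp1. Each of the 8 that rose was positive, and each of the 5 that fell was negative, in experiment 1 and in experiment 3 taken alone. None of the 5 that fell was called with sex as a term, nor with the other-cell marker term. Of the 8 that rose, Dtx3l alone was called with the latter term. With AdTGFb1, every library lay above every AdCL library for Parp9 alone (1.86% of all genes did so) and below every AdCL library for Mx1 alone (4.46% of all genes).

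More of the 36 genes passed in experiment 1 than in experiment 3, as was so for all genes tested. Within experiment 1, 4 of the 36 rose and 7 fell, against 10.6% and 14.1% of all genes (24.7% in either direction). Irf7, Zbp1, Parp9 and Lgals3bp rose, and Stat2, Ifih1, Oasl1, Ifit1, Isg15, Mx1 and Mx2 fell. Within experiment 3, 1 gene rose, Dtx3l, and edgeR called 0 lower, against 1.97% and 4.46% of all genes (6.43% in either direction). At an unadjusted p under 0.05, 14 were higher and 1 lower in experiment 3, a threshold at which all genes were not counted. DESeq2 called 5 of the 36 higher and 1 lower there, and 410 higher and 728 lower among all genes. The groups of experiment 3 did not overlap for 15 of the 36 genes: all AdTGFb1 libraries were above all AdCL libraries for 13 (11.5% of all genes) and below them for 2 (12.9%). In experiment 1 they were above for 3 (18.8%) and below for 8 (21.6%). The sign of the effect was positive in both experiments for 19 genes, negative in both for 7, negative in experiment 1 and positive in experiment 3 for 9, and the reverse for 1.

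**Figure D1:**
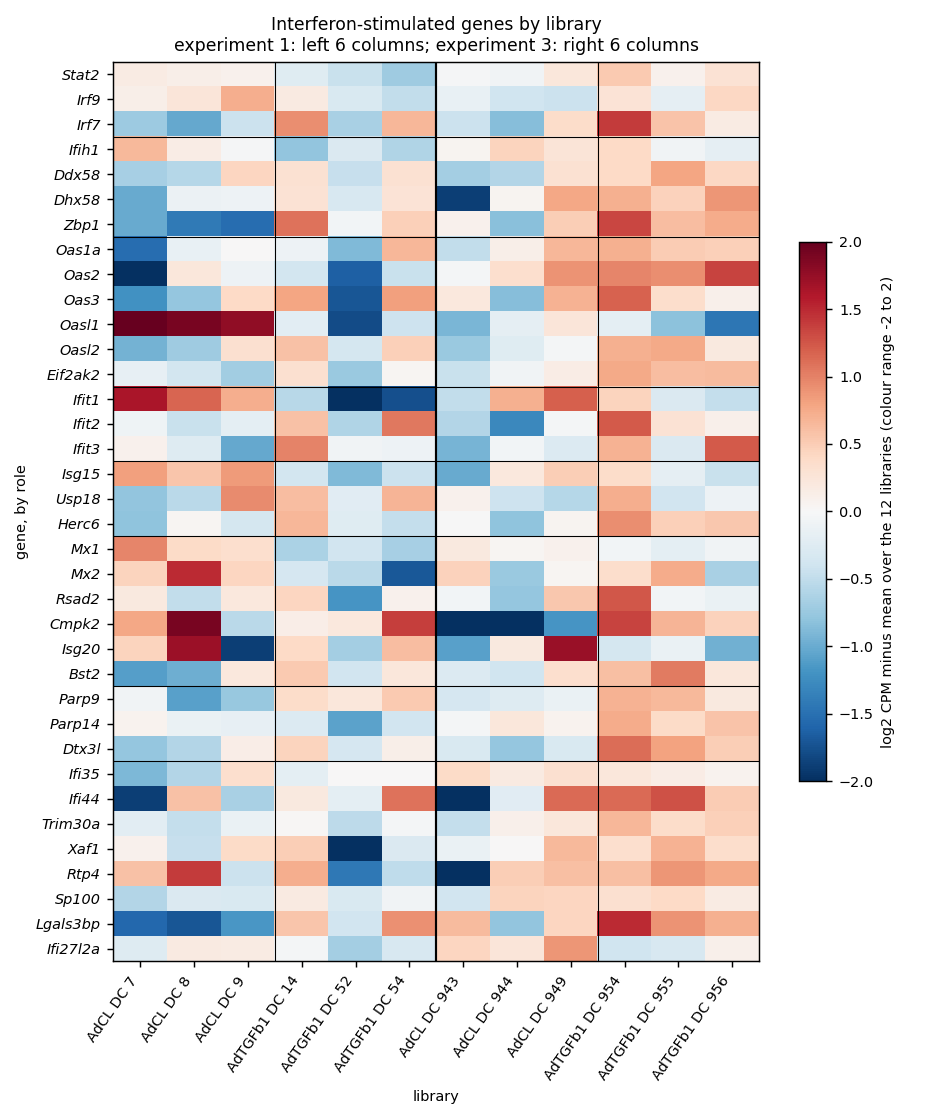
Level of the 36 genes (rows, by role) in the 12 libraries (columns) as log2 CPM minus the gene's mean over the libraries, with colours from -2 (blue) to 2 (red); the 0 of Cmpk2 in AdCL DC 944 was set to 0.3 CPM. Oasl1 is reddest in AdCL DC 7, 8 and 9, at 277.4 to 336.1 CPM, while most genes are red in AdTGFb1 DC 954, which was the highest of its group for 22 of the 36.

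The heat map of all 36 genes also shows libraries that ran high or low across many genes of their group. AdTGFb1 DC 52 was the lowest of its 3 libraries for 27 of the 36 genes, and AdTGFb1 DC 14 the highest for 23. In experiment 3, AdCL DC 949 was the highest of its group for 25 genes and AdTGFb1 DC 954 for 22. The mean of the 36 centred log2 levels was -0.651 in AdTGFb1 DC 52 and 0.209 in AdTGFb1 DC 14, and 0.313 in AdCL DC 949, which exceeded the 0.225 of AdTGFb1 DC 956. The median SD of a gene's log2 level within a group was 0.44 for the 36 genes with AdCL and 0.55 with AdTGFb1 in experiment 1, where all genes had 0.43 and 0.33. In experiment 3 it was 0.47 and 0.31, against 0.38 and 0.36 for all genes.

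Among the transcription factors, Irf7 rose while Stat2 and Irf9 changed with the experiment. Irf7, which drives the genes of interferon-α, stood at 17.1, 13.8 and 20.9 CPM in AdCL DC 7, 8 and 9 and at 53.4, 18.0 and 44.5 CPM in AdTGFb1 DC 14, 52 and 54. Irf7 in experiment 3 stood at 20.8, 15.6 and 36.3 CPM in AdCL DC 943, 944 and 949 and at 74.2, 41.5 and 31.6 CPM in AdTGFb1 DC 954, 955 and 956. AdTGFb1 DC 52 lay within the range of AdCL and AdTGFb1 DC 956 below the highest AdCL library, yet all 6 exceeded the AdCL mean of their own experiment. The log2 fold change was 1.09 ± 0.28 (SE, n = 6 per vector, edgeR adjusted p = 0.0104) over both experiments and 1.16 ± 0.38 (adjusted p = 0.0276) in experiment 1. In experiment 3 it was 1.01 ± 0.37 (adjusted p = 0.119). The call within experiment 1 was lost without AdCL DC 7 (adjusted p = 0.055), AdCL DC 8 (0.0778), AdTGFb1 DC 14 (0.14) or AdTGFb1 DC 54 (0.0846). Irf7 under the other-cell marker term was at 0.71 over both experiments (adjusted p = 0.424) and -0.14 in experiment 1 (0.964). The exons of Irf7 share 45 bases with those of Phrf1 on the other strand.

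Stat2, the subunit of ISGF3 that activates transcription, stood at 128, 123 and 120.1 CPM in AdCL DC 7, 8 and 9 and at 96.1, 83.2 and 69.8 CPM in AdTGFb1 DC 14, 52 and 54. Stat2 in experiment 3 stood at 112, 109 and 133 CPM in AdCL DC 943, 944 and 949 and at 164, 121 and 139 CPM in AdTGFb1 DC 954, 955 and 956. All AdTGFb1 libraries were thus lower in experiment 1, and in experiment 3 AdTGFb1 DC 955 lay within the AdCL range while the other two lay above it. The log2 fold change was -0.57 ± 0.17 (adjusted p = 0.0134) in experiment 1 and 0.26 ± 0.16 (adjusted p = 0.44) in experiment 3. The call in experiment 1 was lost without AdCL DC 7 (adjusted p = 0.0617) or AdTGFb1 DC 54 (0.092), with sex as a term (0.355), with library totals only (0.153) and with the other-cell marker term (0.396).

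Irf9, the DNA-binding subunit of ISGF3, stood at 71.2, 77.8 and 108 CPM in AdCL DC 7, 8 and 9 and at 74.6, 53.0 and 46.8 CPM in AdTGFb1 DC 14, 52 and 54. Irf9 in experiment 3 stood at 59.4, 49.7 and 48.8 CPM in AdCL DC 943, 944 and 949 and at 79.5, 57.8 and 88.0 CPM in AdTGFb1 DC 954, 955 and 956. The groups overlapped in both experiments, and the vector's effect passed in neither (-0.56 ± 0.22, adjusted p = 0.062, and 0.51 ± 0.22, adjusted p = 0.194). The exons of Irf9 share 123 bases with those of Rnf31 on the same strand.

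The 4 sensors of nucleic acids did not move together. Zbp1, which senses Z-form nucleic acids and can start necroptosis, stood at 18.1, 13.6 and 12.6 CPM in AdCL DC 7, 8 and 9 and at 77.0, 35.0 and 50.3 CPM in AdTGFb1 DC 14, 52 and 54. Zbp1 in experiment 3 stood at 38.5, 20.3 and 51.1 CPM in AdCL DC 943, 944 and 949 and at 91.4, 55.7 and 60.7 CPM in AdTGFb1 DC 954, 955 and 956. The groups did not overlap in either experiment, with a ratio of the means of 3.67 in experiment 1 and 1.89 in experiment 3. Zbp1 rose by 1.39 ± 0.26 on the log2 scale over both experiments (adjusted p = 0.00108, higher in 6 of 6 than the AdCL mean of their experiment) and by 1.87 ± 0.32 in experiment 1 (adjusted p = 0.000159). In experiment 3 the value was 0.92 ± 0.31 (adjusted p = 0.0818). The call of Zbp1 was lost with the other-cell marker term over both experiments (0.69, adjusted p = 0.277) and in experiment 1 (0.63, adjusted p = 0.742).

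Ifih1 encodes MDA5, which binds long double-stranded RNA, and went the other way. It stood at 133, 94.6 and 84.0 CPM in AdCL DC 7, 8 and 9 and at 49.2, 70.0 and 56.4 CPM in AdTGFb1 DC 14, 52 and 54. Ifih1 in experiment 3 stood at 89.0, 116 and 102 CPM in AdCL DC 943, 944 and 949 and at 112, 81.1 and 75.3 CPM in AdTGFb1 DC 954, 955 and 956. The groups were apart in experiment 1 and overlapped in experiment 3. Ifih1 fell by 0.51 ± 0.17 on the log2 scale over both experiments (adjusted p = 0.0429, lower in 5 of 6) and by 0.83 ± 0.21 in experiment 1 (adjusted p = 0.00475), while in experiment 3 the value was -0.19 ± 0.20 (adjusted p = 0.694). The call over both experiments held without AdCL DC 943 or AdTGFb1 DC 954 and was lost without any 1 of the other 10 libraries (adjusted p from 0.0546 to 0.141). It was lost as well with sex as a term (-0.47, 0.155), with library totals only (-0.34, 0.145), with the other-cell marker term (-0.30, 0.654), with a plasmacytoid DC marker term (-0.51, 0.0566) and with no term for the experiment (-0.48, 0.0977). The call within experiment 1 was lost without AdCL DC 7 (adjusted p = 0.0669) and with the other-cell marker term (-0.99, 0.333). Ddx58, which encodes RIG-I, the sensor of RNA ends with a triphosphate, and Dhx58, which encodes their helper LGP2, did not pass (0.53 ± 0.25, adjusted p = 0.157, and 0.57 ± 0.31, adjusted p = 0.244). For Ddx58 the AdTGFb1 libraries of experiment 3, at 36.9, 48.3 and 37.1 CPM, were all above the AdCL libraries, at 17.4, 18.6 and 34.4 CPM. Without AdCL DC 9, Ddx58 passed over both experiments (0.77, adjusted p = 0.0268).

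In the OAS family, Oasl1 had the largest difference between the experiments. Oasl1 is a relative of the oligoadenylate synthetases known in mice to block the translation of Irf7 mRNA. It stood at 336.1, 301.02 and 277.4 CPM in AdCL DC 7, 8 and 9 and at 70.2, 23.6 and 61.1 CPM in AdTGFb1 DC 14, 52 and 54. Oasl1 in experiment 3 stood at 43.2, 71.8 and 95.8 CPM in AdCL DC 943, 944 and 949 and at 70.9, 45.8 and 30.0 CPM in AdTGFb1 DC 954, 955 and 956. Only AdCL DC 7, 8 and 9 exceeded 100 CPM, and in experiment 3 the groups overlapped. The log2 fold change was -2.56 ± 0.33 (adjusted p = 6.23e-06) in experiment 1 and -0.53 ± 0.32 (adjusted p = 0.412) in experiment 3. Over both experiments Oasl1 fell by 1.55 ± 0.36 (adjusted p = 0.00565, lower in 5 of 6). That call was lost with sex as a term (-0.99, adjusted p = 0.0606) and with the other-cell marker term (-0.77, adjusted p = 0.435).

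Oasl2 and Eif2ak2 rose over both experiments. Oasl2 went from 27.4 ± 9.49 CPM in the 6 AdCL libraries to 46.7 ± 11.7 CPM in the 6 AdTGFb1 libraries (SD), a log2 fold change of 0.76 ± 0.23 (adjusted p = 0.0285, higher in 5 of 6). Eif2ak2 encodes PKR, a kinase that halts translation when it binds double-stranded RNA, and went from 37.4 ± 7.73 to 56.3 ± 18.0 CPM (0.55 ± 0.19, adjusted p = 0.0467, higher in 5 of 6). Both calls were near the threshold. That of Oasl2 was lost without AdCL DC 7, 8 or 943 or AdTGFb1 DC 14, 54, 954 or 955 (adjusted p from 0.0525 to 0.0752). That of Eif2ak2 held without AdCL DC 7 or 949 or AdTGFb1 DC 52 and was lost without any 1 of the other 9 (0.0505 to 0.128). Both calls were lost with the other-cell marker term at values of 0.87 for Oasl2 (adjusted p = 0.216) and 0.69 for Eif2ak2 (0.232), and that of Eif2ak2 with no term for the experiment too (0.0894). Oas1a, Oas2 and Oas3, whose products make the oligoadenylates that activate RNase L, did not pass, with log2 fold changes of 0.42, 0.16 and 0.59 (adjusted p = 0.369, 0.802 and 0.374). Reads of Oas1a may be shared with its close copy Oas1g.

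The 3 IFIT genes encode RNA-binding proteins that act on viral RNA and its translation, and they split. Ifit1 stood at 70.7, 51.2 and 37.8 CPM in AdCL DC 7, 8 and 9 and at 15.5, 4.73 and 6.74 CPM in AdTGFb1 DC 14, 52 and 54. Ifit1 in experiment 3 stood at 16.3, 37.4 and 52.6 CPM in AdCL DC 943, 944 and 949 and at 31.1, 18.8 and 16.5 CPM in AdTGFb1 DC 954, 955 and 956. The groups were far apart in experiment 1 and overlapped in experiment 3, where AdCL DC 943 was the lowest library. Ifit1 fell by 1.61 ± 0.40 over both experiments (adjusted p = 0.00799, lower in 6 of 6) and by 2.57 ± 0.43 in experiment 1 (adjusted p = 0.00012). In experiment 3 the value was -0.68 ± 0.40 (adjusted p = 0.4), and the call over both was lost with sex as a term (-1.01, adjusted p = 0.0591) or with the other-cell marker term (-0.90, adjusted p = 0.434). With the latter the value in experiment 1 was -2.76 and did not pass (adjusted p = 0.131).

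Ifit2 stood at 27.3, 21.3 and 25.1 CPM in AdCL DC 7, 8 and 9 and at 43.1, 19.0 and 60.0 CPM in AdTGFb1 DC 14, 52 and 54. Ifit2 in experiment 3 stood at 19.1, 11.8 and 28.1 CPM in AdCL DC 943, 944 and 949 and at 67.3, 35.4 and 30.9 CPM in AdTGFb1 DC 954, 955 and 956. AdTGFb1 DC 52 was the exception, below all 3 AdCL libraries of its experiment. Ifit2 rose by 0.95 ± 0.28 over both experiments (adjusted p = 0.0229, higher in 5 of 6), a call that was lost without AdTGFb1 DC 54 (adjusted p = 0.0801), AdCL DC 944 (0.0518) or AdTGFb1 DC 954 (0.0708), and with the other-cell marker term (0.74, adjusted p = 0.416). Ifit3, whose reads may be shared with its copy Ifit3b, was low, at 5.03 ± 1.48 and 9.26 ± 4.10 CPM, and did not pass (0.87 ± 0.39, adjusted p = 0.14).

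**Figure D2:**
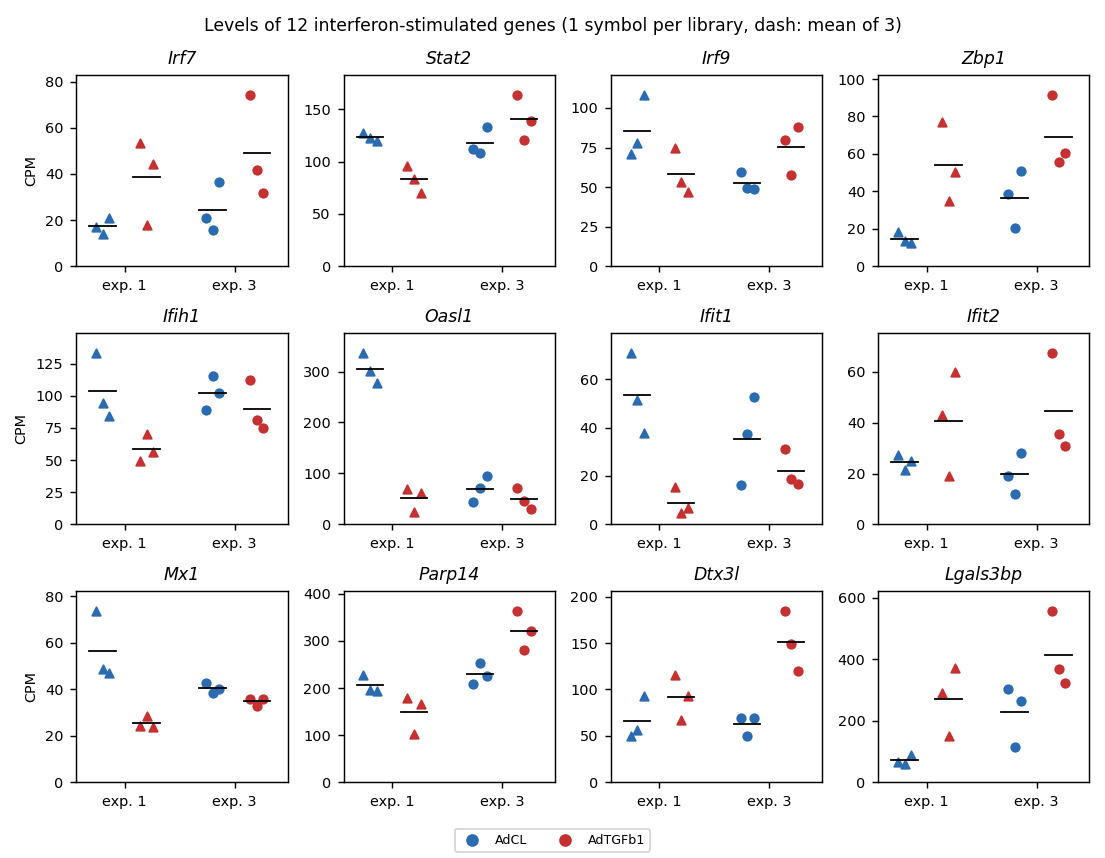
CPM of 12 of the genes, with 1 symbol per library, blue for AdCL and red for AdTGFb1, triangles for experiment 1, circles for experiment 3 and a dash at the mean of 3. Oasl1 lies between 277 and 336 CPM in AdCL of experiment 1 and under 100 CPM elsewhere, while Irf7, Zbp1, Ifit2 and Lgals3bp are higher with AdTGFb1 on average in both experiments.

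Of ISG15 and its enzymes, Isg15 fell in experiment 1. Isg15, a ubiquitin-like protein joined to other proteins, went from 31.4 ± 3.55 to 12.8 ± 2.33 CPM in experiment 1 (n = 3 per vector, log2 fold change -1.29 ± 0.36, adjusted p = 0.0101), with no overlap. In experiment 3 it lay at 19.2 ± 8.85 and 18.2 ± 5.43 CPM (-0.08 ± 0.35, adjusted p = 0.947), and over both experiments it did not pass (-0.68 ± 0.29, adjusted p = 0.124), though it did without AdCL DC 943 (0.016) or AdTGFb1 DC 954 (0.0497). The call within experiment 1 was lost without AdTGFb1 DC 52 (adjusted p = 0.0509), with sex as a term (0.209) and with the other-cell marker term (-1.48, 0.451). Usp18, the protease that removes ISG15 and dampens the interferon receptor, did not pass (0.37 ± 0.34, adjusted p = 0.512).

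Herc6, the main enzyme that attaches ISG15 in mice, stood at 20.8, 37.1 and 28.4 CPM in AdCL DC 7, 8 and 9 and at 57.4, 30.6 and 26.1 CPM in AdTGFb1 DC 14, 52 and 54. Herc6 in experiment 3 stood at 35.97, 20.8 and 37.7 CPM in AdCL DC 943, 944 and 949 and at 69.5, 50.5 and 52.9 CPM in AdTGFb1 DC 954, 955 and 956. The groups were apart in experiment 3 and overlapped in experiment 1. The log2 fold change over both experiments was 0.64 ± 0.23 (adjusted p = 0.0595). It passed with DESeq2 (adjusted p = 0.0415), with library totals only (0.0213), with no filter on low counts (0.0215), with sex as a term (0.00756) and with a plasmacytoid DC marker term (0.0499). It also passed without AdCL DC 8 (0.025), AdTGFb1 DC 52 (0.0422) or AdTGFb1 DC 54 (0.0293).

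Among the 6 inhibitors of virus replication or release, Mx1 was lower in every AdTGFb1 library. Mx1 encodes a GTPase against influenza virus, of which C57BL/6 mice carry a defective allele, and it has a close relative in Mx2. It stood at 73.6, 49.0 and 47.1 CPM in AdCL DC 7, 8 and 9 and at 24.2, 28.7 and 23.7 CPM in AdTGFb1 DC 14, 52 and 54. Mx1 in experiment 3 stood at 42.9, 38.6 and 40.0 CPM in AdCL DC 943, 944 and 949 and at 36.1, 32.8 and 35.7 CPM in AdTGFb1 DC 954, 955 and 956. All 6 AdTGFb1 libraries lay below all 6 AdCL libraries, by a wide gap in experiment 1 and a narrow one in experiment 3. Mx1 fell by 0.68 ± 0.19 over both experiments (adjusted p = 0.0183) and by 1.15 ± 0.22 in experiment 1 (adjusted p = 0.000579), and in experiment 3 the value was -0.22 ± 0.22 (adjusted p = 0.686). The call over both was lost without AdCL DC 7 (adjusted p = 0.0597), AdTGFb1 DC 14 (0.0597) or AdTGFb1 DC 54 (0.0602), with library totals only (0.0583), with sex as a term (0.15) and with the other-cell marker term (0.519). In experiment 1 the call was lost with that term (-1.61, adjusted p = 0.11).

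Mx2 fell by 1.63 ± 0.48 in experiment 1 (adjusted p = 0.0165), from 19.6 ± 9.04 to 6.34 ± 2.69 CPM, and not over both (-0.68 ± 0.42, adjusted p = 0.308). That call was lost without AdCL DC 8 (adjusted p = 0.121), the highest of its group, or AdTGFb1 DC 54 (0.0875), with sex as a term (-1.22, 0.313) and with the other-cell marker term (-0.31, 0.936). Rsad2, which encodes viperin, an enzyme that makes a chain-terminating nucleotide, lay at 29.5 ± 9.37 and 34.7 ± 19.0 CPM and did not pass (0.21 ± 0.30, adjusted p = 0.699). Bst2 encodes tetherin, which holds budding virions at the cell surface, and Isg20 an exonuclease of RNA. Neither passed over both experiments (0.70 ± 0.27, adjusted p = 0.0845, and -0.83 ± 0.56, adjusted p = 0.361). Bst2 passed without AdCL DC 9 (adjusted p = 0.0189), with library totals only (0.0346) and with a plasmacytoid DC marker term (0.03). Cmpk2, a mitochondrial nucleotide kinase, was among the lowest of the 36, with 0, 5 and 15 counts in AdCL DC 944, 943 and 949 and 46 to 84 counts in the AdTGFb1 libraries of experiment 3. These did not overlap, yet the difference did not pass (adjusted p = 0.0965).

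Parp9 and Dtx3l encode partners in a complex that modifies histones and viral proteins, and both rose. Parp9 stood at 39.3, 19.3 and 24.3 CPM in AdCL DC 7, 8 and 9 and at 52.8, 47.8 and 59.1 CPM in AdTGFb1 DC 14, 52 and 54. Parp9 in experiment 3 stood at 32.6, 34.4 and 37.5 CPM in AdCL DC 943, 944 and 949 and at 66.2, 64.2 and 46.9 CPM in AdTGFb1 DC 954, 955 and 956. Every AdTGFb1 library exceeded every AdCL library. Parp9 rose by 0.85 ± 0.18 over both experiments (adjusted p = 0.00234) and by 0.95 ± 0.24 in experiment 1 (adjusted p = 0.00629), with 0.76 ± 0.24 in experiment 3 (adjusted p = 0.0641). The call within experiment 1 was lost with sex as a term (0.94, adjusted p = 0.0821) and with the other-cell marker term (0.23, 0.897), and with the latter the call over both was lost too (0.57, 0.29).

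Dtx3l, the ubiquitin ligase of that complex, is given in full because it alone passed in experiment 3, a choice made after its values were seen. It stood at 49.6, 56.6 and 93.4 CPM in AdCL DC 7, 8 and 9 and at 116, 67.2 and 92.7 CPM in AdTGFb1 DC 14, 52 and 54. Dtx3l in experiment 3 stood at 68.9, 49.8 and 68.8 CPM in AdCL DC 943, 944 and 949 and at 184, 149 and 120.0 CPM in AdTGFb1 DC 954, 955 and 956. The groups overlapped in experiment 1 and were apart in experiment 3. Dtx3l rose by 0.87 ± 0.20 over both experiments (adjusted p = 0.00549, higher in 6 of 6) and by 1.27 ± 0.24 in experiment 3 (adjusted p = 0.00153), with 0.46 ± 0.24 in experiment 1 (adjusted p = 0.159). Over both experiments it was called under all 20 alternatives that were run, among them the other-cell marker term. The exons of Parp9 and Dtx3l share 458 bases on opposite strands, so that without the strand setting reads of the pair may be mixed.

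Parp14, another ADP-ribosyltransferase of the family, had the second highest level among the 36 before correction for length. It stood at 228, 197 and 193 CPM in AdCL DC 7, 8 and 9 and at 179, 103 and 167 CPM in AdTGFb1 DC 14, 52 and 54. Parp14 in experiment 3 stood at 209, 254 and 227 CPM in AdCL DC 943, 944 and 949 and at 363, 281 and 321 CPM in AdTGFb1 DC 954, 955 and 956. The groups did not overlap in either experiment, and the order was opposite: AdTGFb1 was lower in experiment 1 and higher in experiment 3. Within an experiment neither difference passed (-0.46 ± 0.17, adjusted p = 0.0552, and 0.48 ± 0.17, adjusted p = 0.109).

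Of the 8 other genes, Lgals3bp rose and Ifi27l2a fell. Lgals3bp, which encodes a secreted glycoprotein that binds galectins, stood at 66.2, 60.3 and 88.4 CPM in AdCL DC 7, 8 and 9 and at 289, 152 and 370.1 CPM in AdTGFb1 DC 14, 52 and 54. Lgals3bp in experiment 3 stood at 304.7, 114 and 265 CPM in AdCL DC 943, 944 and 949 and at 556, 368 and 321 CPM in AdTGFb1 DC 954, 955 and 956. The groups were apart in both experiments, and AdCL itself was higher in experiment 3 than in experiment 1. Lgals3bp rose by 1.39 ± 0.26 over both experiments (adjusted p = 0.00123, higher in 6 of 6) and by 1.92 ± 0.31 in experiment 1 (adjusted p = 7.05e-05), with 0.87 ± 0.30 in experiment 3 (adjusted p = 0.0886). Lgals3bp did not pass with the other-cell marker term, at 0.58 over both experiments (adjusted p = 0.303) and 0.26 in experiment 1 (0.9).

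Ifi27l2a, a small mitochondrial protein of a family of close copies, fell from 64.0 ± 17.5 to 43.1 ± 8.14 CPM (-0.55 ± 0.17, adjusted p = 0.0307, lower in 6 of 6). That call was lost without AdCL DC 8, 9 or 949 or AdTGFb1 DC 52, 954 or 955 (adjusted p from 0.0684 to 0.109), with library totals only (0.156), with sex as a term (0.101), with the other-cell marker term (-0.75, 0.119) and with no term for the experiment (0.0528). The other 6 did not pass over both experiments. They were Trim30a, a TRIM protein with close copies (0.32 ± 0.15, adjusted p = 0.176, and 0.0269 with library totals only), Sp100, a protein of nuclear bodies (0.21 ± 0.15), Ifi44 (0.84 ± 0.61), Ifi35 (0.04 ± 0.21), Xaf1, a partner of the apoptosis inhibitor XIAP (-0.03 ± 0.35), and Rtp4, a chaperone of membrane receptors (-0.04 ± 0.55).

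**Figure D3:**
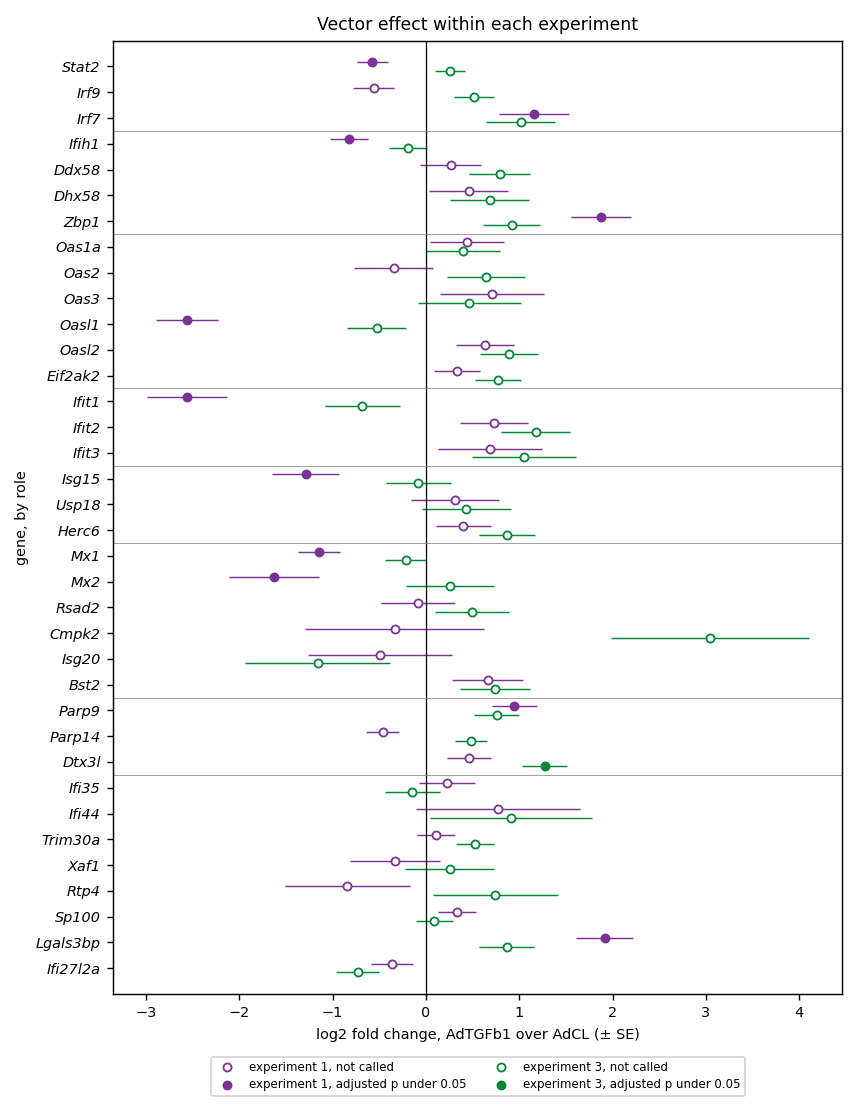
Log2 fold change of AdTGFb1 over AdCL (± SE) for each of the 36 genes in experiment 1 (purple) and experiment 3 (green), by role, with filled symbols where the edgeR adjusted p was under 0.05. In experiment 1 filled symbols lie on both sides of 0, from -2.57 for Ifit1 to 1.92 for Lgals3bp, and in experiment 3 Dtx3l, at 1.27, is the only one filled.

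The vector's effect itself differed between the experiments for 4 of the 36 genes, Stat2, Irf9, Oasl1 and Parp14, against 6.02% of all genes (3.43% higher and 2.59% lower). All 4 were higher in experiment 3, and edgeR called 0 lower, with 2 at an unadjusted p under 0.05 and 0 in DESeq2. The plot of effects by experiment shows them to the right in experiment 3. The difference (experiment 3 minus experiment 1, log2) was 0.83 ± 0.23 for Stat2 (edgeR adjusted p = 0.0339), 1.07 ± 0.31 for Irf9 (0.0392), 2.04 ± 0.45 for Oasl1 (0.00802) and 0.95 ± 0.25 for Parp14 (0.0226). That of Oasl1 held when any 1 of the 12 libraries was left out. Those of Stat2, Irf9 and Parp14 were lost without any 1 of 9, 7 and 5 of the 12 libraries (adjusted p from 0.0599 to 0.11, from 0.062 to 0.122 and from 0.0505 to 0.0747). For Stat2 the call held without AdTGFb1 DC 14, AdCL DC 949 or AdTGFb1 DC 955. For Irf9 it was lost without AdCL DC 9, 944 or 949 or AdTGFb1 DC 52, 54, 954 or 956, and for Parp14 without AdCL DC 7, 943 or 949 or AdTGFb1 DC 52 or 954. None of the 4 passed with sex as a term, where the differences were 0.62 for Stat2 (adjusted p = 0.331), 0.71 for Irf9 (0.392), 1.59 for Oasl1 (0.186) and 0.69 for Parp14 (0.297). That sex term rests on AdTGFb1 DC 14 against DC 52 and 54, so it cannot tell sex from the spread of these libraries. None of the 4 passed with the other-cell marker term, where the differences were larger, at 0.98 for Stat2 (0.226), 1.26 for Irf9 (0.239), 2.26 for Oasl1 (0.123) and 1.13 for Parp14 (0.164). With library totals only Oasl1 alone passed, and with a plasmacytoid DC marker term Stat2 (0.0683) and Irf9 (0.0761) did not.

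Compared across experiments with the vector held fixed, AdCL libraries differed for 4 genes (9.02% of all genes were called, 4.13% higher and 4.89% lower). Zbp1 (1.31 ± 0.32, adjusted p = 0.0114) and Lgals3bp (1.67 ± 0.30, adjusted p = 0.00132) were higher in experiment 3, and Irf9 (-0.70 ± 0.22, adjusted p = 0.0441) and Oasl1 (-2.11 ± 0.33, adjusted p = 0.000307) were lower. Among AdTGFb1 libraries 33 of the 36 genes were higher in experiment 3 in sign, with a median log2 difference of 0.50, where 6799 of the 13221 genes were higher and the median was 0.02. Of the 36, 4 passed as higher (4.61% of all genes; 7.81% in either direction). None was lower by edgeR, where 3.2% of all genes were, with 0 at an unadjusted p under 0.05 and 0 in DESeq2. The 4 that passed were Stat2 (0.77 ± 0.17, adjusted p = 0.00502), Oas2 (1.81 ± 0.43, adjusted p = 0.0102), Parp14 (1.11 ± 0.18, adjusted p = 0.000343) and Trim30a (0.67 ± 0.20, adjusted p = 0.0409). The call of Irf9 was lost without AdCL DC 8 (adjusted p = 0.0631), 9 (0.237), 943 (0.0526), 944 (0.112) or 949 (0.167), and that of Zbp1 without AdCL DC 949 (0.0766). That of Oas2 was lost without AdTGFb1 DC 52 (0.0578) or 956 (0.0517), and that of Trim30a without AdTGFb1 DC 52 (0.225), 54 (0.078), 954 (0.137) or 956 (0.0975). With sex as a term none of the AdCL calls passed (adjusted p from 0.0646 for Zbp1 to 0.948 for Irf9), with the other-cell marker term Zbp1 (0.117) and Irf9 (0.0682) did not, and with library totals only Irf9 (0.106) did not. Among the AdTGFb1 calls, Stat2 (0.06), Oas2 (0.308) and Trim30a (0.16) did not pass with the other-cell marker term, nor did Stat2 (0.0604), Oas2 (0.0522) and Trim30a (0.273) with a plasmacytoid DC marker term. Trim30a did not pass with library totals only either (0.0519). All AdCL libraries of experiment 1 were male and all of experiment 3 female, so that sex and experiment cannot be told apart among them.

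Divided by the length of the annotated exons, the highest levels over the 12 libraries were 115.6 CPM per kb for Ifi27l2a, 86.5 for Lgals3bp and 45.6 for Oasl1. The lowest were 0.653 CPM per kb for Ifi44 and 0.788 for Cmpk2. Among the 26 genes with a promoter window, 1 of the 12 with an ISRE core rose and 2 fell (median log2 fold change over both experiments 0.37), and 5 of the 14 without one rose and 1 fell (median 0.70), beside 6.78% of all genes that rose and 10.4% that fell. Of the promoters printed, the 3 with a core belong to genes that fell in experiment 1, Stat2, Ifih1 and Ifit1. Of those without one, Irf7 and Lgals3bp rose and Oasl1 fell. Eif2ak2, not printed, holds a core and rose over both experiments, and 9 of the 12 genes with a core were not called.

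Upstream of the 36 genes, the interferons themselves were scarce. Of 14 ligand symbols sought, 12 were in the table and 1, Ifnb1, the gene of interferon-β, passed the filter on low counts. Ifnb1 stood at 19.2, 2.89 and 1.77 CPM in AdCL DC 7, 8 and 9 and at 0.757, 0.644 and 1.24 CPM in AdTGFb1 DC 14, 52 and 54. Ifnb1 in experiment 3 stood at 0.385, 3.34 and 4.29 CPM in AdCL DC 943, 944 and 949, at 0 in AdTGFb1 DC 954 and 955 and at 1.93 CPM in AdTGFb1 DC 956. AdCL DC 7 alone exceeded 5 CPM, and the difference did not pass (-2.59 ± 1.01, adjusted p = 0.0858), though it did with DESeq2 (0.0224) and with no filter on low counts (0.033). It moved to -1.72 (adjusted p = 0.383) without AdCL DC 7, to -2.88 (0.0454) without AdCL DC 943 and to -4.16 (0.0121) without AdTGFb1 DC 956. A count of 0 allows up to 3 counts, which is 0.209 CPM in AdTGFb1 DC 954 and 0.240 CPM in AdTGFb1 DC 955.

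Of 9 tested receptor and kinase genes of the interferons, 3 fell, where 10.4% of all genes fell and 6.78% rose. Ifnar1, a subunit of the receptor, fell by 0.43 ± 0.10 (adjusted p = 0.00561, lower in 6 of 6), Jak1 by 0.39 ± 0.12 (adjusted p = 0.0274) and Jak2, which serves the interferon-γ receptor, by 1.17 ± 0.10 (adjusted p = 1.04e-06). Ifnar2 (0.17 ± 0.12, adjusted p = 0.374) and Tyk2 (0.31 ± 0.12, adjusted p = 0.0865) did not pass. The call of Ifnar1 was lost with library totals only (adjusted p = 0.0644), with no term for the experiment (0.077) and with the other-cell marker term (0.361). That of Jak1 was lost without AdCL DC 7, 8, 9 or 944 or AdTGFb1 DC 14, 52 or 54 (0.0507 to 0.125), with library totals only (0.176), with sex as a term (0.126), with the other-cell marker term (0.717) and with no term for the experiment (0.0501). Tyk2 passed with library totals only (0.0163) and without AdCL DC 943 (0.0459).

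Of the other interferon regulatory factors, Irf8 rose by 1.16 ± 0.12 (adjusted p = 4.03e-06), while Irf4 fell by 1.36 ± 0.16 (adjusted p = 1.36e-05) and Irf5 by 0.68 ± 0.10 (adjusted p = 0.00011). Irf4 was also among the CD11b DC markers used here. Irf1, a target of interferon-γ, did not pass over both experiments (0.47 ± 0.18, adjusted p = 0.0739), and rose in experiment 3 (0.89 ± 0.20, adjusted p = 0.00607). The call in experiment 3 was lost without AdTGFb1 DC 954 (0.0621). Over both experiments Irf1 passed with DESeq2 (0.0445), library totals only (0.0114), no filter on low counts (0.0152), sex as a term (0.00496) or a plasmacytoid DC marker term (0.0361), and without AdCL DC 7 (0.0332) or AdTGFb1 DC 52 (0.0158). Irf3, which acts with Irf7 downstream of the sensors, did not pass (0.48 ± 0.20, adjusted p = 0.116, and 0.034 with library totals only). Of 13 adaptors and kinases that link sensors to interferon, 2 rose and 4 fell, where 6.78% of all genes rose and 10.4% fell. Among them were Tmem173, the gene of STING (1.00 ± 0.19, adjusted p = 0.00133), and Tank, a scaffold of the kinase TBK1 (-0.86 ± 0.13, adjusted p = 0.00011). Traf6, a ubiquitin ligase of Toll-like receptor signalling (-0.65 ± 0.15, adjusted p = 0.00441), and Trim25, one that activates RIG-I (-0.42 ± 0.10, adjusted p = 0.00564), fell too. With the other-cell marker term none of these 4 passed (0.0856 for Tank to 0.478 for Traf6), and Trim25 did not with library totals only (0.089). Of 5 genes of Toll-like receptors for nucleic acids and their chaperone, 3 rose, beside 6.78% of all genes. They were Unc93b1, the chaperone (0.60 ± 0.11), Tlr3 (1.86 ± 0.48) and Tlr8 (1.10 ± 0.32). Tlr7 did not (0.52 ± 0.24, adjusted p = 0.148, and 0.0392 with library totals only). Tlr3 was also among the markers of CD103 DCs, another type of DC. The mean level of those markers overlapped between the vectors in both experiments, and the part of CD103 DCs in the rise of Tlr3 was not tested. The call of Tlr8 was lost without AdCL DC 7 (adjusted p = 0.0576) or AdTGFb1 DC 54 (0.051) and with sex as a term (0.145). With the other-cell marker term none of the 3 passed (0.107 for Unc93b1 to 0.579 for Tlr8), and with no term for the experiment Unc93b1 (0.0654) and Tlr8 (0.0603) did not.

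Of 12 negative regulators, 3 rose and 3 fell, where 6.78% of all genes rose and 10.4% fell. Ptpn6, which encodes the phosphatase SHP-1, rose by 0.91 ± 0.11 (adjusted p = 1.35e-05) and Samhd1, which depletes nucleotides, by 0.86 ± 0.14 (adjusted p = 0.000283). Ptpn2, a phosphatase of JAK1, fell by 0.77 ± 0.12 (adjusted p = 0.000128) and Tnfaip3, the ubiquitin-editing enzyme A20, by 1.00 ± 0.15 (adjusted p = 0.000133). Socs1, a feedback inhibitor of JAK kinases, rose by 0.86 ± 0.29 (adjusted p = 0.0455). That call held without AdCL DC 7 or AdTGFb1 DC 954 and was lost without any 1 of the other 10 libraries (0.0577 to 0.105), with sex as a term (0.0742), with no filter on low counts (0.102) and with no term for the experiment (0.12). With the other-cell marker term Ptpn6 passed (0.0109), and Samhd1 (0.143), Ptpn2 (0.0567), Tnfaip3 (0.0737) and Socs1 (0.491) did not.

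Of a further 34 interferon-induced genes, 7 rose and 3 fell, with a median of 0.39, where 6.78% of all genes rose and 10.4% fell. Ifi204, a sensor of DNA, rose by 1.51 ± 0.19 (adjusted p = 2.47e-05) and Ly6a, the surface protein Sca-1, by 2.20 ± 0.49 (adjusted p = 0.00383), while Slfn2 fell by 0.94 ± 0.13 and Helz2, a helicase, by 1.21 ± 0.16 (adjusted p = 5.14e-05 for each). Interferon-γ is known to induce the next lists strongly. Of 8 tested guanylate-binding protein genes, 7 rose and 1 did not pass, with a median of 1.28, and Gbp3 (1.07 ± 0.15, adjusted p = 8.98e-05) and Gbp7 (1.56 ± 0.23, adjusted p = 9.56e-05) had the smallest p-values, followed by Gbp8 (1.36 ± 0.23, adjusted p = 0.000382) and Gbp2 (1.79 ± 0.31, adjusted p = 0.000532). Of 11 tested genes of CXCR3 ligands and immunity-related GTPases, 5 rose and 6 did not pass, with a median of 1.26. Cxcl9, whose product draws T cells through CXCR3, rose by 2.18 ± 0.34 (adjusted p = 0.000194). The GTPase genes Igtp (1.32 ± 0.28, adjusted p = 0.00314), Irgm1 (1.00 ± 0.25, adjusted p = 0.00972) and Tgtp2 (1.40 ± 0.43, adjusted p = 0.031) rose too. The call of Tgtp2 was lost without AdCL DC 9 or 949 or AdTGFb1 DC 14, 54 or 954 (0.0507 to 0.0769). With the other-cell marker term Ifi204, Ly6a, Slfn2, Helz2, Gbp3 and Gbp7 passed, and Gbp8 (0.0506), Gbp2 (0.099), Cxcl9 (0.0629), Igtp (0.224), Irgm1 (0.28) and Tgtp2 (0.36) did not. The difference between these lists and the 36 genes was not tested. Guanylate-binding proteins have close copies, and reads may be shared among them.

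**Figure D4:**
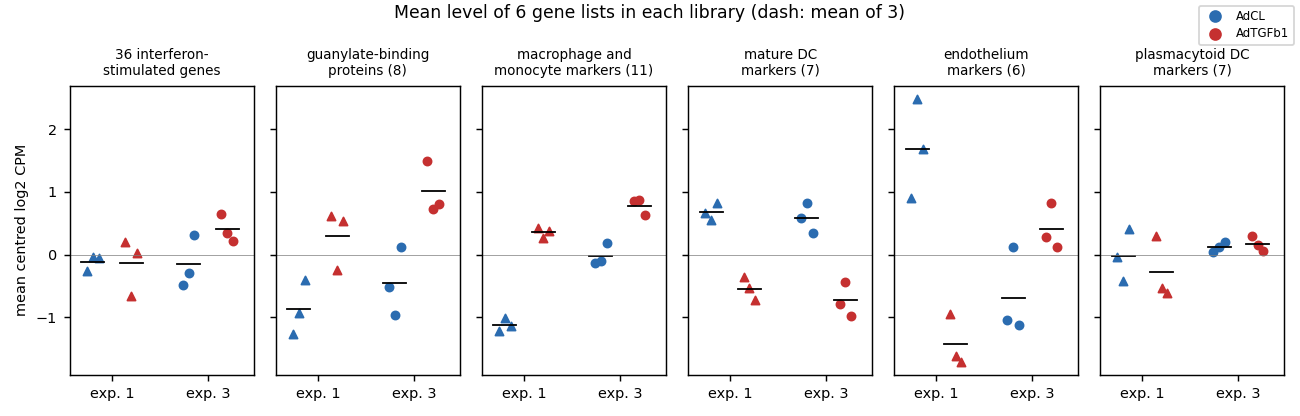
Level of 6 gene lists, as the mean centred log2 CPM, with 1 symbol per library, blue for AdCL and red for AdTGFb1, triangles for experiment 1, circles for experiment 3 and a dash at the mean of 3. The 36 genes overlap between vectors in both experiments (-0.651 to 0.209 with AdTGFb1 and -0.254 to -0.0351 with AdCL in experiment 1), whereas the macrophage and monocyte markers do not, and endothelial markers are highest in AdCL of experiment 1.

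The mean level of the 36 genes per library overlapped between the vectors in both experiments, as the plot of list levels shows, while that of the macrophage and monocyte markers did not. Over both experiments, 9 of the 11 macrophage and monocyte markers rose and 6 of the 7 mature DC markers fell. In experiment 1 all 6 endothelial and 5 of 7 epithelial markers fell. Of all genes, 6.78% rose and 10.4% fell over both experiments, and 14.1% fell in experiment 1. With a term for sex, which leaves AdTGFb1 DC 14 as the only male AdTGFb1 library, 0 of the 36 genes fell over both in edgeR and 4 fell in experiment 1. How many of all genes fell with that term was not counted.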

How the data were processed

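RNA of CD11b DCs from 12 libraries was measured by RNA-seq, made with a directional poly(A) kit per the labels' protocols. The authors deposited raw counts per gene symbol. The mm9 build, STAR 2.5.0c and HTSeq stand in the submitters' processing notes, as do Trim Galore 0.4.1, DESeq2, FastQC 0.11.4, bcl2fastq and cutadapt 1.9.1. Which annotation and which strand setting HTSeq used is not given in the sources used here. Libraries were grouped by vector and experiment from the labels.

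The deposited counts were tested in R 4.3.3 with edgeR 4.0.16 (TMM scaling, filterByExpr, two-sided quasi-likelihood F test), on all 12 libraries. The model over both experiments had the experiment as a term, and the others used the 4 groups. P-values were Benjamini-Hochberg adjusted over the 13221 genes tested of 24391 (7100 had no count), and calls are those with an adjusted p under 0.05. The SE is the log2 fold change divided by the square root of F. Errors of means are SDs. A count of 0 allows up to 3 counts, 0.181 to 0.310 CPM, and such limits cover counting error only. The mean centred log2 CPM used a prior count of 2.

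The members and lists were chosen with earlier results of these data known. All 36 genes are named. Values in every library are given for the gene with the smallest adjusted p and the gene with the highest level in each role group, and for those whose vector effect differed between experiments. Up to 4 genes per pathway list with the smallest p are named, besides a fixed set (Ifnar1, Ifnar2, Jak1, Tyk2, Irf1, Irf3, Irf8, Socs1), and 1 gene of the rule is not reported here. Exon lengths and overlaps came from GENCODE M21 (GRCm38), and promoters from RefSeq (GRCm38.p6). Alternatives were RLE size factors, library totals only, DESeq2 1.42.0, no low-count filter, terms for sex, for markers of other cells or for plasmacytoid DC markers, no experiment term, the libraries of 1 experiment alone, and each library left out. Their use on pathway genes and lists was chosen after seeing the data. On simulated counts with known changes over both experiments (12782 genes), the test recovered 71.1% of 4-fold and 41.1% of 2-fold changes, and 6.9% of its calls were false. For the difference between experiments (12805 genes) these shares were 45.8%, 3.09% and 14.5%, for experiment 1 (12825 genes) 61.5%, 24.2% and 4.65%, and for experiment 3 (12793 genes) 53.6%, 17.7% and 4.17%. In the simulation over both experiments 95 genes were changed 2-fold and 97 genes 4-fold, without differences of experiment, sex or cell mixture. In the data 2271 genes were called over both experiments. The shares therefore describe the simulated counts and may not hold for the data.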

Additional observations from a re-analysis of the deposited data

Results flagged for a closer look

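Of 72 groups of 6 libraries (36 genes by vector), 4 held a library farther from the others than Dixon's 95% limit of 0.625, and chance alone passes that limit in a share of about 0.05 of groups. All 4 were AdCL groups. Irf7 was 36.3 CPM in AdCL DC 949, where the next library had 20.9 CPM. Usp18 was 21.5 CPM in AdCL DC 9, where the next had 11.7 CPM. Mx1 was 73.6 CPM in AdCL DC 7, where the next had 49.0 CPM. Mx2 was 30.1 CPM in AdCL DC 8, where the next had 14.6 CPM.

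The vector effect differed between the experiments for 4 genes by edgeR's interaction test. The difference, experiment 3 minus experiment 1 on the log2 scale, was 0.83 for Stat2 (adjusted p = 0.0339), 1.07 for Irf9 (0.0392), 2.04 for Oasl1 (0.00802) and 0.95 for Parp14 (0.0226). None of the 4 was called with sex as a term, nor with the other-cell marker term. Oasl1 alone kept its call whichever library was left out.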

How the results depend on the processing

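No paired analysis was possible because the groups share no replicate numbers. Over both experiments, the 8 genes that rose became 1 with the other-cell marker term and 5 to 9 with 1 library left out (5 without AdTGFb1 DC 954). The 5 that fell became 2 with library totals only, 0 with a term for sex, 0 with the other-cell marker term, 3 without the experiment term and 3 to 6 with 1 library left out. They were 3 without AdCL DC 7, 8, 9 or 949 or AdTGFb1 DC 14, 52, 54 or 955. In experiment 1, the 4 that rose became 7 with library totals only, 0 with the term for other cells and 3 to 7 with 1 library left out (7 without AdCL DC 9). The 7 that fell became 4 with the term for sex and 1 with that for other cells. In experiment 3, the 1 that rose became 5 with library totals only, 5 with DESeq2, 10 with no low-count filter, 6 with that experiment's libraries alone and 1 to 5 with 1 library left out (5 without AdTGFb1 DC 52). The 0 that fell by edgeR (1 at an unadjusted p under 0.05) became 1 with DESeq2, 1 with no low-count filter and 0 to 1 with 1 library left out.

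The 4 genes whose vector effect differed between experiments became 1 with library totals only, 7 with no low-count filter, 0 with the term for sex, 0 with that for other cells, 2 with that for plasmacytoid DC markers and 1 to 5 with 1 library left out (1 without AdTGFb1 DC 954). Among AdCL libraries, the 2 higher in experiment 3 became 0 with the term for sex and 1 to 3 with 1 library left out. The 2 lower became 1 with library totals only, 0 with the term for sex, 1 with that for other cells and 1 to 2 with 1 library left out. Among AdTGFb1 libraries, the 4 higher in experiment 3 became 9 with no low-count filter, 8 with the term for sex, 2 with that for other cells, 1 with that for plasmacytoid DC markers and 2 to 8 with 1 library left out (8 without AdTGFb1 DC 14). The log2 fold change of Irf7 in experiment 1 turned from 1.16 to -0.14 (adjusted p = 0.964) with the term for other cells. The cause of these shifts was not tested. Except with RLE size factors, library totals only and DESeq2, how many of all genes were called under an alternative was not counted.

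Library totals alone moved the median of all genes over both experiments from -0.0020 to 0.17, with 1582 genes higher and 918 lower in place of 897 and 1374. In experiment 1 the median moved to 0.21, with 2384 higher and 1264 lower in place of 1397 and 1867.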
